A study of Rattus norvegicus with 27 samples.

Results

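The transcriptional effect of IFNγ on differentiating oligodendrocyte precursor cells (OPCs) after 48 h was read from 6 Affymetrix rat genome arrays, 3 of cultures in T3 with IFNγ (T3+IFNγ) and 3 of cultures in T3 alone, out of 27 arrays in 9 groups. The arrays were taken by their titles and paired by donor number, and no measured value entered that choice of arrays. The comparison and the gene lists were chosen with earlier results of these data known. All 14218 genes with a probe set of their own were compared. The OPCs of every group came from Sprague-Dawley rat cerebral cortex of early postnatal pups, were selected on magnetic beads by A2B5, an antigen that early glial progenitors display, and were expanded with PDGF, a mitogen that holds them as progenitors. The PDGF group was collected at 0 h. In all other groups PDGF was withdrawn and T3, the thyroid hormone triiodothyronine that drives OPCs to differentiate, was added without or with recombinant rat IFNγ for 8, 24, 48 or 96 h. Both groups at 48 h therefore shared the withdrawal of PDGF and the T3, and differed in IFNγ. Each group held cultures of 3 separate donors. Whether a donor was 1 animal or a pool of pups is not given in the sources used here, nor are sex and genotype. A group of IFNγ without T3 was not analysed here.

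IFNγ is a cytokine of T cells and natural killer cells. It binds a receptor of 2 chains, and the kinases JAK1 and JAK2 carry its signal to genes with gamma-activated sites in their promoters. Among the first targets is the transcription factor IRF1, which with other interferon regulatory factors binds interferon-stimulated response elements. Through these elements cells turn on guanylate-binding proteins, antigen processing and presentation, chemokines and antiviral effectors. In the oligodendrocyte lineage, T3 ends division and starts the genes of myelin, so that at 48 h the cultures were partway along that course.

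Signals are RMA values on the log2 scale, so that a difference of 1 is a 2-fold change, and the signal of a probe set is comparable between arrays but not between genes. The median signal of the 6 arrays lay between 5.97 and 6.01, and the 3' minus 5' difference of the Gapdh control probe sets between −0.26 and −0.14. That of Actb was 0.80 to 0.94 in T3 and 0.88 to 1.16 in T3+IFNγ, highest in the treated array of donor 2 (1.16, against 0.82 in its T3 array), and its part in the results was not tested. Deviations from the group means correlated positively within each donor at 48 h (r of 0.415, 0.241 and 0.325 over genes), so the donor was kept as a block. The median change of all genes with IFNγ was −0.05 (donors −0.03, −0.04 and −0.04). In bulk samples like these, fewer cells of a type and less RNA per cell cannot be told apart. Lineage markers were present in both groups: the mean signal of the 11 measured oligodendrocyte lineage markers was 10.69, 10.86 and 10.85 in the T3 arrays of donors 1 to 3 and 10.68, 10.71 and 10.70 in their T3+IFNγ arrays, with 2 members higher and 2 lower (among them Nkx2-2 at 1.90, Mog at −1.61 and Mag at −1.56). The cultures also held markers of microglia and macrophages. The mean signal of the 23 measured markers was 5.55, 5.30 and 6.31 in T3 and 7.04, 6.66 and 8.14 in T3+IFNγ, with donor 3 highest in both groups.

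The promoters of 5 of the genes that rose most are shown, since they hold the letters of elements known from interferon response genes. They are RefSeq promoter sequences of assembly GRCr8, 300 bases each, from 250 before to 50 after the start of the gene and written 5′ to 3′ along the strand of the gene: Gbp7 chr2:233948639-233948938 on the plus strand, Igtp chr10:42874797-42875096 on the plus strand, Gbp2 chr2:234005477-234005776 on the plus strand, Psmb8 chr20:4656982-4657281 on the minus strand, Cxcl10 chr14:15988816-15989115 on the plus strand. Capitals mark matches to TTCNNNGAA, the palindrome of the gamma-activated site, and to GAAANNGAA, a core of the interferon-stimulated response element, on either strand. On the opposite strand the core reads TTCNNTTTC. Both patterns end or begin in GAA and could share letters, but in these windows they did not overlap.
Gbp7: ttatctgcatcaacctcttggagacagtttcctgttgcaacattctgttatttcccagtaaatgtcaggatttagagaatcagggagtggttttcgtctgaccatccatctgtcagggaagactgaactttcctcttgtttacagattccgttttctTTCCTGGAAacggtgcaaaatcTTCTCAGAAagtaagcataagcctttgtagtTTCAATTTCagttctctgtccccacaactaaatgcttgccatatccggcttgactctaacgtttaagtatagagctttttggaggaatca
Igtp: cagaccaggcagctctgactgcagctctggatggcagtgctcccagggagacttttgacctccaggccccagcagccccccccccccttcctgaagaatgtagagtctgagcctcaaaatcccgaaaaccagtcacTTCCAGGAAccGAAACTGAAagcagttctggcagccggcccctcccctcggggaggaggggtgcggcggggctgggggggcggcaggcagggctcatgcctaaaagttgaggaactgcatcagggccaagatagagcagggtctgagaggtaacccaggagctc
Gbp2: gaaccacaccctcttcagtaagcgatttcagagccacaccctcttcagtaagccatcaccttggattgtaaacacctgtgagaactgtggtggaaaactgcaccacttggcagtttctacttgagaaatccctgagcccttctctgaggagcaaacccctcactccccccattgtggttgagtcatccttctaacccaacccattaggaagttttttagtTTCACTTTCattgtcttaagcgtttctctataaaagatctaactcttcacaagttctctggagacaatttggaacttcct
Psmb8: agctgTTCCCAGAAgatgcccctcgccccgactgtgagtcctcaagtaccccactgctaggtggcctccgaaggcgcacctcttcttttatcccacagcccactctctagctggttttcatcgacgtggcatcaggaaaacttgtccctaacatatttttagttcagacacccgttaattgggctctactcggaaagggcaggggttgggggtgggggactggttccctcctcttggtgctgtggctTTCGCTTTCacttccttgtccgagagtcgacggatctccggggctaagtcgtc
Cxcl10: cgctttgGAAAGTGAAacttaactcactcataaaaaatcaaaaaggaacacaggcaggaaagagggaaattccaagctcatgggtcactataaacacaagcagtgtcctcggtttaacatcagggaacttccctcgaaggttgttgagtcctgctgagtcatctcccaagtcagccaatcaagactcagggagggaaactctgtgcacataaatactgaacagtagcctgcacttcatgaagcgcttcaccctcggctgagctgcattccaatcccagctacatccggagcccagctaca
Gbp7 held gamma-activated site letters 93 and 71 bases before the start and the response element core 40 bases before it. In Igtp the site began 114 and the core 103 bases before the start, and in Gbp2 the core lay 30 bases before it. Psmb8 held the site 245 bases and the core 3 bases before the start, and Cxcl10 the core at 243 bases. Of the 50 largest rises with IFNγ, 40 have a promoter in the table, of which 14 (35%) held the site, 24 (60%) the core and 28 (70%) either. Of the 50 largest falls, 35 have one, with 2 (5.71%), 1 (2.86%) and 3 (8.57%). Among the 11734 of 14218 tested genes in the table the shares were 6.99%, 7.18% and 13.5%. Among all 27457 promoters of the table they were 8.68%, 9.5% and 17.1%. A match is a description of these letters only. Ubd, RT1-Da, Psmb9, Plac8 and Mx1 are among the 15 largest rises and held neither pattern in this window.

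At 48 h, IFNγ raised 1469 genes (10.3% of those tested) and lowered 1699 (11.9%) at a limma adjusted p under 0.05, with n = 3 donors per group. With the arrays centred on their medians again over the genes tested, the split was 1180 higher and 2903 lower, and the median change −0.13 in place of −0.05, so small falls across many genes depend on the centring. The balance also depended on the donors, with 1011 higher and 542 lower without donor 2 and 785 and 756 without donor 3. Of the called genes, 437 (3.07%) were at least 2-fold higher and 158 (1.11%) at least 2-fold lower. The rises were larger than the falls: 34 genes rose by 5 or more and 174 by 2 or more on the log2 scale, while 13 fell by 2 or more. Of the 3168 called genes, 3133 moved the same way in all 3 donors, and in 322 the 2 groups overlapped. The calls use the same 3 donors, which in part fixes both counts, and they are not set against all genes. The median signal of the 437 genes went from 6.07 in T3 to 8.32 in T3+IFNγ, and that of the 158 genes from 8.61 to 7.18. Donors differed more in the falls. Donor 2 had 257 genes at least 2-fold lower, donor 1 had 229 and donor 3 had 89, whereas 343, 493 and 575 were at least 2-fold higher. Leaving out each donor in turn left 386 of the 437 and 119 of the 158 genes called every time.

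**Figure D1:**
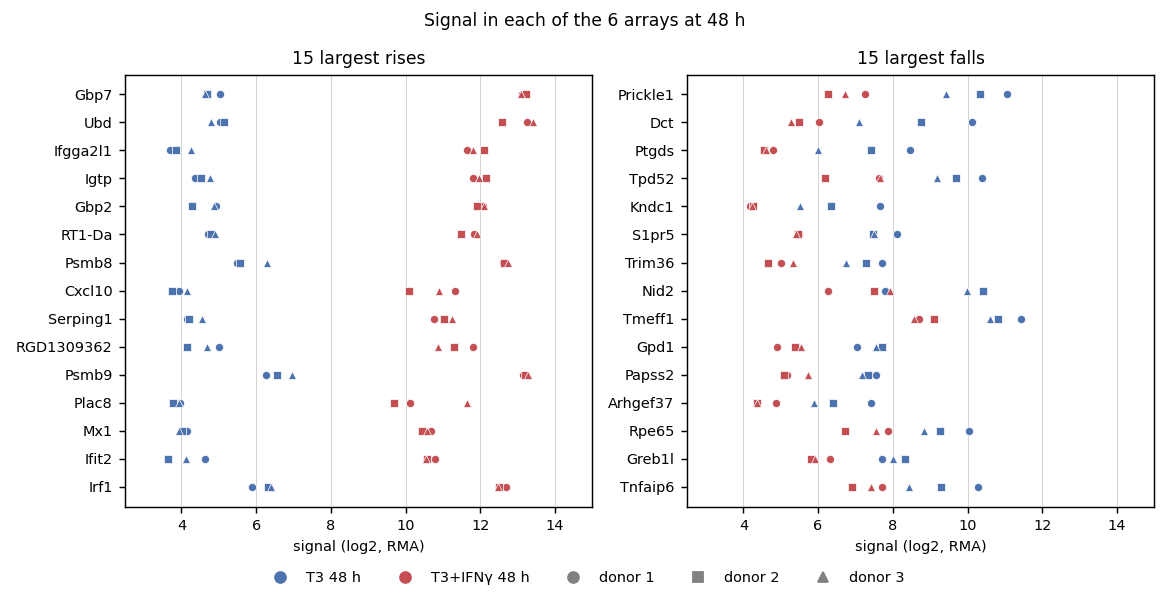
Signal (log2, RMA; horizontal axis) of the 15 largest rises (left) and the 15 largest falls (right) in each of the 6 arrays at 48 h, blue for T3 and red for T3+IFNγ, with a symbol per donor. The rises start from signals of 3.65 to 6.95 and end between 9.70 and 13.40, and in the falls the T3 points spread over donors, with Nid2 the one gene whose groups overlap.

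The largest rise was in Gbp7, a guanylate-binding protein of the interferon-inducible GTPases that attack vacuoles of intracellular pathogens. Its signal was 5.02, 4.68 and 4.63 in T3 and 13.11, 13.21 and 13.09 in T3+IFNγ, a change of 8.36 ± 0.24 (SE, n = 3; limma adjusted p = 1.36e-16). The groups lay far apart and the treated arrays close to each other. Igtp, an immunity-related GTPase, went from 4.36, 4.51 and 4.77 to 11.81, 12.14 and 11.96 (7.42 ± 0.15, limma adjusted p = 1.66e-18). Gbp2 went from 4.93, 4.27 and 4.87 to 12.07, 11.92 and 12.10 (7.34 ± 0.26, limma adjusted p = 3.3e-15). Neither gene overlapped between groups. All 6 measured interferon-inducible GTPases rose, by a median of 6.73. Ubd, the ubiquitin-like protein FAT10 that sends proteins to the proteasome, went from 5.04, 5.15 and 4.78 to 13.24, 12.59 and 13.40 (8.08 ± 0.30, limma adjusted p = 5.69e-15). Of 12 genes of ubiquitin-like modifiers and their enzymes, 10 rose (median 3.13), among them Isg15 by 5.15, Rnf213 by 4.09 and Herc6 by 3.49.

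Of the receptor and its pathway, 9 of 21 measured genes rose and 1 fell (median change 0.26, against −0.05 over all genes). The shares were 42.9% higher and 4.76% lower, against 10.3% and 11.9% over all genes. The receptor chain Ifngr2 rose by 0.70 (limma adjusted p = 6.74e-06), and the ligand-binding chain Ifngr1 went from 8.81, 8.85 and 9.18 to 9.09, 8.82 and 9.63, which overlap (limma adjusted p = 0.145). The kinase Jak2 went from 6.78, 7.06 and 7.11 to 8.76, 8.63 and 8.71, with no overlap, and Jak1 rose by 0.63. Stat2 rose by 3.08 and Stat3 by 1.71. The feedback inhibitor Socs1, which blocks JAK kinases, went from 4.41, 4.01 and 4.20 to 7.97, 6.86 and 7.67 (3.29, limma adjusted p = 3.97e-10), while Socs3, a related inhibitor, changed by 0.26 (limma adjusted p = 0.0767). Usp18, which removes ISG15 from proteins, rose by 3.79. The phosphatase Ptpn11 fell by 0.71 (limma adjusted p = 0.000291), a call that was lost when 1 donor was left out.

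Of the 17 interferon regulatory factors and other induced transcription factors measured, 12 rose and none fell, and all 12 stayed called without each donor in turn. Irf1 went from 5.88, 6.31 and 6.39 to 12.69, 12.50 and 12.46 (6.36 ± 0.14, limma adjusted p = 4.3e-18), with the 3 treated arrays well clear of the others. Irf8, which directs the development of macrophages, went from 4.89, 4.97 and 4.78 to 10.20, 10.02 and 10.43 (5.34). Irf9 rose by 3.62, Irf7 by 1.67 and Irf2, a partial antagonist of Irf1, by 0.98. The 2 transactivators of MHC genes rose as well, Nlrc5 of class I by 3.75 and Ciita of class II by 2.30. Of 41 antiviral effectors and RNA sensors, 40 rose, with a median of 2.86. They included the GTPase Mx1 (from 4.15, 4.004 and 3.94 to 10.67, 10.44 and 10.56), Ifi44l (6.13), Rsad2, or viperin (5.58), and Dtx3l with its partner Parp9 (6.05 and 5.19).

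The immunoproteasome, which cuts peptides for MHC class I, rose in all its measured members. Psmb8, the catalytic immunoproteasome subunit LMP7, went from 5.47, 5.57 and 6.29 in T3 to 12.60, 12.64 and 12.73 in T3+IFNγ (6.88 ± 0.22, limma adjusted p = 4.13e-16), and Psmb9 (LMP2) from 6.27, 6.55 and 6.95 to 13.14, 13.20 and 13.27 (6.61). The groups did not overlap in either, and the treated arrays were closer together than the T3 arrays. Psmb10, the other catalytic subunit, rose by 4.34, the activator chains Psme1 and Psme2 by 3.68 and 3.44, and the assembly factor Pomp by 0.33, a call lost without donor 3 (adjusted p = 0.0686 by limma). All 6 members measured thus rose (median 4.01). In the 31 genes of the constitutive proteasome the median change was −0.16, with 2 higher and 4 lower, and 0 of these 6 calls held without each donor in turn. These shares (6.45% higher and 12.9% lower) stand against 10.3% and 11.9% over all genes. With median centring the counts were 0 higher and 13 lower, and with the 6 arrays alone 0 and 0.

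Of 19 genes of MHC class I and peptide loading, 14 rose and none fell (median 3.04). Tap1, a chain of the peptide transporter into the endoplasmic reticulum, went from 5.74, 6.15 and 5.95 to 11.40, 11.85 and 11.91 (5.78, limma adjusted p = 1.2e-17). Tap2 rose by 4.17, tapasin (Tapbp) by 3.04 and the trimming peptidase Erap1 by 2.23. B2m, the invariant class I chain, went from 10.57, 10.86 and 11.27 to 14.07, 14.16 and 14.17 (3.24), close to the highest signal of the whole table (14.5). The class I heavy chain genes RT1-S3 and RT1-T24-4 rose by 5.59 and 5.09. These gene copies are alike in sequence, and probes can be shared between them.

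Of 13 genes of MHC class II and its loading, 9 rose and none fell (median 2.45). RT1-Da, a class II alpha chain, went from 4.72, 4.79 and 4.89 to 11.82, 11.49 and 11.90 (6.94, limma adjusted p = 2.88e-16), with no overlap and little spread. Cd74, the invariant chain, went from 4.54, 4.35 and 4.79 to 10.46, 10.00 and 11.85 (6.21), and its treated arrays spread over more than 1 log2 unit, with donor 3 highest. RT1-Db1 rose by 5.12 and the loading factors RT1-DMa and RT1-DMb by 2.45 and 2.55. RT1-Ba, another class II alpha chain, has 4 probe sets that disagreed: the brightest, which stands for the gene, changed by −0.10 (limma adjusted p = 0.59), and another by −0.09, but the other two rose by 5.18 and 5.24 (limma adjusted p = 2.29e-12 and 5.33e-13 over all probe sets that name 1 gene). The microglia and macrophage markers, which can carry class II, were also higher, and were also highest in donor 3 (8.14, against 7.04 and 6.66 in T3+IFNγ), and their part in the class II result was not tested.

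Of 42 chemokines and cytokines, 16 (38.1%) rose and 1 (2.38%) fell (median 0.25), against 10.3% higher and 11.9% lower over all genes. With genes of low signal left out 8 rose and 1 fell. Cxcl10, which draws T cells through CXCR3, went from 3.92, 3.75 and 4.14 to 11.32, 10.10 and 10.90 (6.83 ± 0.26, limma adjusted p = 8.12e-15). Ccl2, which draws monocytes, went from 3.68, 3.59 and 4.18 to 10.36, 8.28 and 9.10 (5.43). In both, donor 1 had the highest and donor 2 the lowest signal with IFNγ, and every treated array lay above every T3 array. The other CXCR3 ligands Cxcl9 and Cxcl11 rose by 5.07 and 4.25, Il15 by 3.31, Tnfsf10, the death ligand TRAIL, by 3.22, Cxcl16 by 2.90 and Il12a by 1.03. Tgfb2 was the member that fell (by 1.27, limma adjusted p = 0.000586). Of 20 genes of adhesion and T cell co-stimulation, 9 (45%) rose. They included Icam1 (1.77), Vcam1 (1.44), Cd86 (1.01) and Cd40 (0.85).

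Of 18 complement genes, 9 (50%) rose and none fell, against 10.3% higher and 11.9% lower over all genes. The C1 inhibitor Serping1 rose by 6.71, the proteases C1s and C1r by 4.71 and 3.85, and C3, the component on which all pathways converge, by 4.23. C1qa, C1qb and C1qc, which in brain are made mostly by microglia, rose by 3.17, 4.04 and 3.48. Of 35 cell death genes, 20 (57.1%) rose and none fell (median 0.49). The death receptor Fas went from 5.57, 6.20 and 6.04 to 7.02, 7.08 and 7.46 (1.25, limma adjusted p = 2.49e-06), with no overlap. Rises in the opposite role were seen in the same list: Cflar, which inhibits death receptor signalling, rose by 1.93 and Bcl2a1, an inhibitor of mitochondrial death, by 2.12. Inflammatory and necroptotic members rose too, with Ripk2 at 2.59, Casp12 at 2.25, Gsdmd at 2.15, Casp4 at 1.63, Ripk1 at 1.52, Casp1 at 1.34 and Ripk3 at 1.04, and of the 20 calls 14 held without each donor in turn. Of 22 enzymes of tryptophan, nitric oxide and redox chemistry, 6 (27.3%) rose. They were led by the NADPH oxidase chains Cybb (3.02) and Cyba (1.62) and by Wars1 (1.40). Ido1, which degrades tryptophan, changed by 0.37 (limma adjusted p = 0.0698) and Nos2 by −0.08 (limma adjusted p = 0.488).

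Of the 23 markers of microglia and macrophages, 14 rose and 1 (Cd163) fell, with a median of 1.28 (donors 1.12, 0.90 and 1.99). Lyz2 went from 7.71, 7.24 and 8.74 to 12.65, 12.28 and 13.48, Ctss from 7.27, 6.52 and 8.75 to 10.72, 10.31 and 11.98, and P2ry12 from 3.91, 4.56 and 4.99 to 7.53, 7.77 and 7.76. Aif1 went from 5.60, 4.63 and 7.62 to 8.33, 7.19 and 10.29, so that the groups overlapped while every donor rose. Other defining markers did not pass the test: Cx3cr1 was 5.83, 5.80 and 5.79 in T3 and 5.91, 5.80 and 5.79 in T3+IFNγ (limma adjusted p = 0.859), and Tmem119, Itgam and Adgre1 changed by −0.21, 0.56 and 0.46. Cx3cr1 lay below the median of all values (5.99) in every array, and 14 of the 23 markers had a T3 mean below it. A flat course in such a dim marker is weak evidence of no change. With genes of low signal left out, 12 markers rose and 0 fell. Donor 3 had the highest Lyz2, Ctss and Aif1 in both groups. Irf8, complement C1q, Cybb and Ctss are made by microglia, and the part of these cells in those rises was not tested. Markers of other cells moved less. The mean signal of the 14 astrocyte markers ran from 8.19 to 8.51 in T3 and from 8.54 to 8.71 in T3+IFNγ, and 4 rose and 1 fell. Neuron markers ran from 6.31 to 6.46 and from 6.58 to 6.63, with 3 of 18 higher, among them Tubb3, from 7.63, 8.03 and 8.28 to 10.08, 9.65 and 9.74, and 2 lower, Elavl3 (−0.41) and Nefh (−0.29). Vascular markers stayed between 4.72 and 4.82 in all 6 arrays, with 0 of 16 higher and 1 lower, and T and natural killer cell markers between 4.86 and 4.98, with 2 of 14 higher and 1 lower. Over all genes 10.3% were higher and 11.9% lower.

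**Figure D2:**
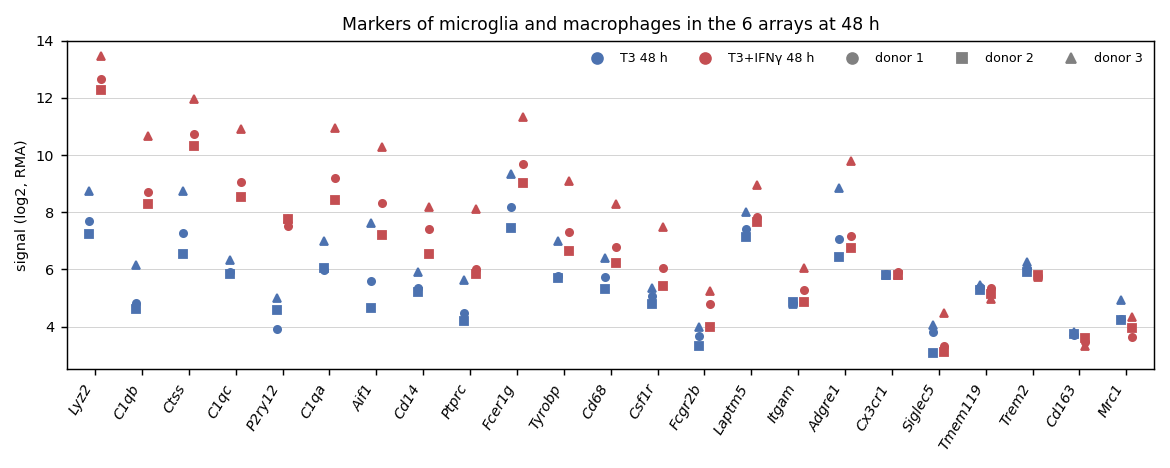
Signal (log2, RMA) of the 23 measured microglia and macrophage markers in the 6 arrays at 48 h, ordered by their change, blue for T3 and red for T3+IFNγ, with a symbol per donor. Lyz2, C1qb and Ctss rose in every donor while Cx3cr1 stayed between 5.79 and 5.91, below the median of all values (5.99). Donor 3 stands highest in Aif1, Ctss and Lyz2 in both groups.

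The largest falls are given first. Of the 158 genes at least 2-fold lower, 94 (59.5%) were also at least 2-fold higher in T3 at 96 h than at 24 h. Of all 14218 genes tested, 617 rose in this way with T3. Prickle1, a protein of the planar polarity pathway, was 11.07, 10.34 and 9.41 in T3 and 7.27, 6.27 and 6.71 in T3+IFNγ (−3.52 ± 0.28, limma adjusted p = 3.17e-09). Dct, a tautomerase of pigment synthesis, was 10.13, 8.76 and 7.10 against 6.01, 5.49 and 5.28 (−3.07 ± 0.37, limma adjusted p = 2.13e-06), and Ptgds, the prostaglandin D2 synthase of oligodendrocytes and meninges, 8.46, 7.41 and 5.99 against 4.80, 4.56 and 4.59 (−2.64 ± 0.32, limma adjusted p = 2.29e-06). In all of them donor 1 was highest and donor 3 lowest in T3, the T3 arrays spread over more than 1 log2 unit, the treated arrays were closer together, and the groups did not overlap. Tpd52, a vesicle trafficking protein, was 10.39, 9.68 and 9.17 against 7.63, 6.17 and 7.65, and S1pr5, the sphingosine-1-phosphate receptor of mature oligodendrocytes, 8.11, 7.48 and 7.51 against 5.48, 5.45 and 5.40. Gpd1, the cytosolic glycerol-3-phosphate dehydrogenase that T3 and glucocorticoids raise in oligodendrocytes, was 7.05, 7.71 and 7.55 against 4.91, 5.39 and 5.55 (−2.16, limma adjusted p = 3.32e-08). Nid2, a basement membrane protein, was 7.80, 10.41 and 9.99 against 6.25, 7.48 and 7.93, which overlap. Its call (−2.18, limma adjusted p = 0.00126) was lost without donor 2 (0.0952), as was that of the sulfate donor synthase Papss2 (−2.03; 0.0629 without donor 2).

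Of 20 structural myelin proteins measured, 10 (50%) fell and 1 (5%) rose, against 11.9% lower and 10.3% higher over all genes. Their median change was −0.35 (donors −0.54, −0.36 and −0.28), and 2 of the 11 calls held without each donor in turn. These were Mag, the adhesion protein facing the axon, which was 11.84, 11.51 and 11.14 in T3 and 10.26, 9.45 and 10.09 in T3+IFNγ (−1.56 ± 0.21, limma adjusted p = 1.25e-05), and Tspan2, a tetraspanin, at 13.16, 13.01 and 12.80 against 11.98, 11.55 and 11.67 (−1.25, limma adjusted p = 3.15e-06). The groups did not overlap in either gene. Mog, on the outer surface of myelin, was 9.85, 9.62 and 9.53 against 8.29, 7.58 and 8.29 (−1.61, limma adjusted p = 0.00321, and 0.114 without donor 2). Mobp changed by −1.19 (limma adjusted p = 0.00571, and 0.106 without donor 2). Cldn11, the tight junction protein of myelin, changed by −0.999 (limma adjusted p = 0.0259, and 0.245 without donor 2 or 0.138 without donor 3). A dimmer Cldn11 probe set changed by −2.04 (limma adjusted p = 0.000198 over all probe sets that name 1 gene). The remaining falls ran from Nfasc (−0.77), Gjb1 (−0.71) and Mal (−0.70) to Jam3 (−0.52) and Pllp (−0.41), and the tetraspanin Cd82 was the member that rose (0.72). Some of the best-known myelin genes did not pass the test in the probe set used. Mbp was 14.40, 14.21 and 14.22 against 14.06, 13.86 and 14.02 (limma adjusted p = 0.441), near the top of the scale. Of 2 dimmer Mbp probe sets, one fell by 0.89 (limma adjusted p = 0.0249 over all probe sets that name 1 gene) and the other changed by −0.78 (0.137). Cnp was 13.88, 13.81 and 13.68 against 13.81, 13.77 and 13.71 (limma adjusted p = 0.928), which overlap. Opalin, a late membrane protein, lay at 4.05 to 4.33 in T3 and at 3.77 to 4.16 in T3+IFNγ.

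Of 50 other genes of maturing oligodendrocytes, 17 (34%) fell and 4 (8%) rose (median −0.20), against 11.9% lower and 10.3% higher over all genes. Of the 21 calls, 15 held without each donor in turn. Aspa, which breaks down N-acetylaspartate for lipid synthesis, was 10.76, 9.90 and 9.41 against 8.79, 7.81 and 8.68 (−1.60, limma adjusted p = 7.29e-05). Gpr37, a receptor of the lineage, was 6.87, 6.54 and 5.94 against 4.43, 4.75 and 5.09 (−1.70, limma adjusted p = 0.00055). Neither overlapped. Tppp, which bundles microtubules, fell by 1.43, Mcam by 1.14, Padi2 by 0.96, Dock10 by 0.90 and Gamt, of creatine synthesis, by 0.88. Against the list, Septin8 went from 8.69, 9.43 and 9.48 to 10.09, 10.75 and 10.19, and Prr5l, Adora1 and Enpp2 rose by 1.35, 0.79 and 0.77. Crym, a thyroid hormone-binding protein, was 11.33, 11.19 and 11.16 against 9.79, 9.54 and 9.15 (−1.73, limma adjusted p = 2.55e-06), and Klf9, a direct target of the thyroid hormone receptor, changed by 0.67 (limma adjusted p = 0.00168, and 0.0542 without donor 2).

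The factors that specify the lineage did not fall as a group: of 27 measured, 6 rose and 1 (St18, by 0.59) fell, 2 of these 7 calls held without each donor in turn, and 3 rose without donor 2 or donor 3. Nkx2-2, which OPCs raise as they start to differentiate, went from 9.05, 10.10 and 10.42 in T3 to 11.49, 12.11 and 11.67 in T3+IFNγ (1.90, limma adjusted p = 9.21e-06), with no overlap, and Myt1 went from 8.31, 8.96 and 9.01 to 9.78, 10.27 and 9.88. Olig1, Olig2, Sox10 and Myrf changed by 0.13, −0.14, 0.17 and −0.18 and were not called. Of 23 transcription regulators of progenitors, 10 rose and 1 (Hes6, by 0.32) fell, with a median of 0.41. Egr2 went from 6.45, 6.64 and 5.89 to 8.08, 8.20 and 8.51, Fos rose by 1.51, Sox3 and Sox11 both by 1.13, Hey1, a Notch target, by 1.15, and Myc by 0.75, and 5 of the 11 calls held without each donor in turn. Of 33 OPC receptors, proteoglycans and other OPC genes, 4 rose, among them Pdgfra (0.60) and Cspg5 (0.85), and 5 fell, among them Fgfr2 (by 1.09) and Rlbp1 (by 1.01). None of those 9 calls held without each donor in turn. Of 45 cell cycle genes, 3 rose and 5 fell, and again 0 of 8 calls held. The shares higher and lower were 12.1% and 15.2% in the OPC list and 6.67% and 11.1% in the cell cycle list. Both lie near those of all genes (10.3% and 11.9%).

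Metabolic lists moved by small amounts. Of 25 sterol synthesis genes, 9 fell and 3 rose (median −0.41), with Ebp, a sterol isomerase, at −0.94 (limma adjusted p = 0.00209, and 0.101 without donor 2). Counts of lower members ran from 18 without donor 1 to 0 without donor 2 or donor 3. The sterol exporter Abcg1 (1.52) and Ch25h, which makes 25-hydroxycholesterol (1.11), were higher. Of 27 genes of fatty acid and sphingolipid synthesis, 11 fell and none rose, among them Acsl1 by 0.89 and Elovl6 by 0.78, and 2 of the 11 calls held without each donor in turn. Of 53 genes of the respiratory chain and ATP synthase, 25 fell and none rose (median −0.20). Of 41 cytosolic ribosomal proteins, 12 fell and none rose (median −0.16). The shares lower were 47.2% and 29.3%, against 11.9% over all genes, whose median change was −0.05. Both shifts were small, and their calls depended on the setting. With median centring 36 and 26 fell, in a fit of the 6 arrays at 48 h alone 4 and 1 did, and 2 of 25 and 1 of 12 calls held without each donor in turn. Of 19 genes of iron transport and storage, 5 rose, such as the ferroxidase Cp (1.77) and the mitochondrial carrier Slc25a28 (1.18), and 2 fell.

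The remaining lists held calls in both directions, most of them at shares close to those of all genes (10.3% higher and 11.9% lower), and are given as description. Of 55 axon guidance genes, 9 rose and 7 fell, with Plxnc1, a semaphorin receptor, at 1.56 and Sema4d, a semaphorin of oligodendrocytes, at −1.43. In 50 genes of Wnt signalling and planar polarity, 5 rose, such as Tcf7 by 1.50, and 6 fell, such as Bambi by 1.19 and Prickle1. Of 56 genes of extracellular matrix and its receptors, 6 rose, with Timp1 at 1.60 and Col11a1 at 1.45, and 6 fell. In 70 ion channels and neurotransmitter receptors, 5 rose and 8 fell, with Kcna1 at −1.09. Kcnq5 rose by 1.80 in the probe set used, and another of its probe sets was called in the opposite direction. Of 41 genes of amino acid and endoplasmic reticulum stress, 3 rose, such as the arginine transporter Slc7a3 (1.67), and 3 fell, such as Eif2ak3 (by 0.58).

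**Figure D3:**
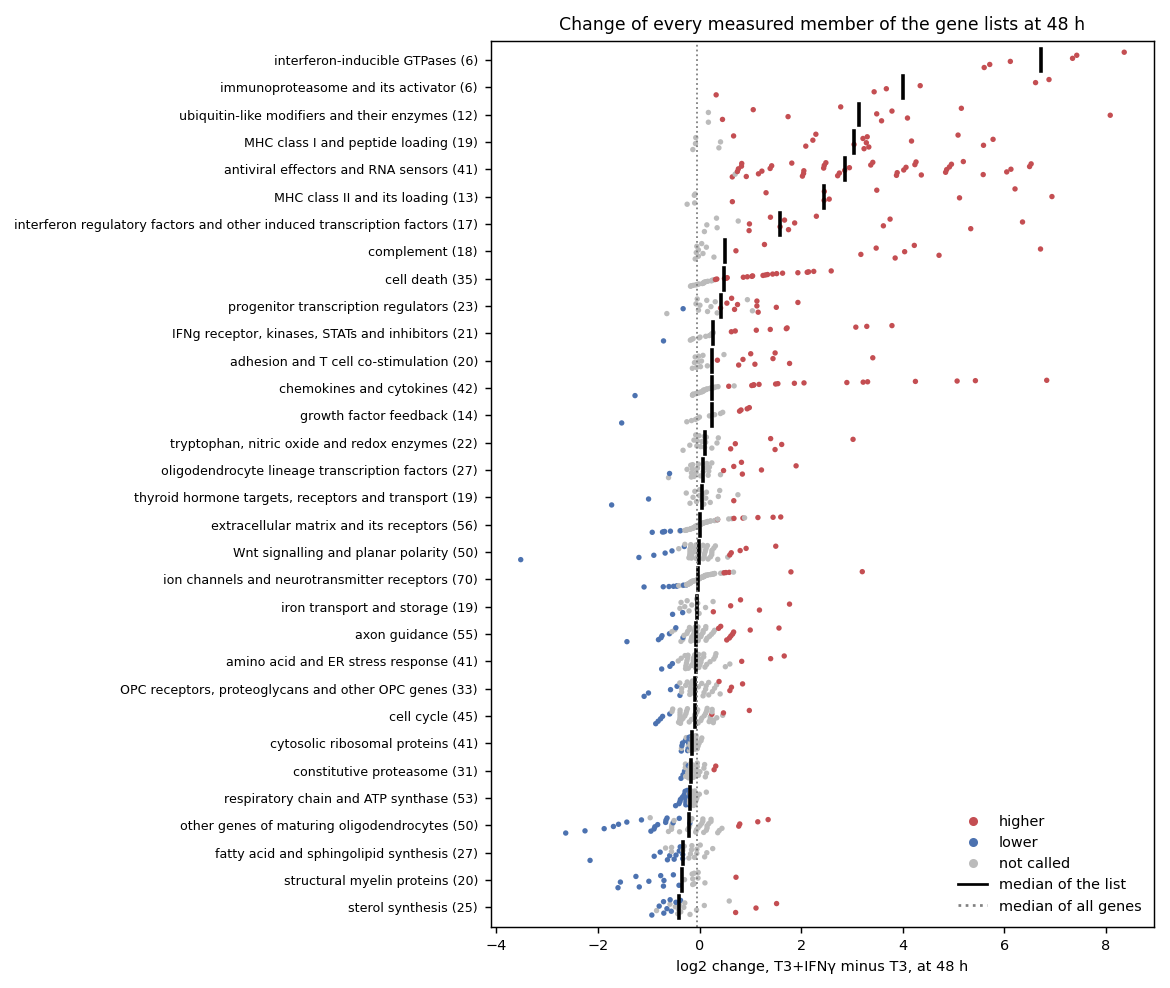
Change at 48 h (log2, T3+IFNγ minus T3; horizontal axis) of each measured member of the 32 gene lists, ordered by the median of each list (black bar), with the number measured in brackets. Red points were called higher, blue lower and grey neither, the dotted line is the median of all genes (−0.05), and the interferon-inducible GTPases (6.73) and sterol synthesis (−0.41) are the ends of the order.

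The 158 genes at least 2-fold lower were then placed on the course of T3 alone. Genes at least 2-fold higher in T3 at 96 h than in T3 at 24 h (617 late T3-induced genes) were chosen without the arrays at 48 h. Of the 617, 247 (40.03%) were lower with IFNγ at 48 h and 65 (10.5%) higher, with a median change of −0.31 (donors −0.47, −0.38 and −0.13). Among the 13003 genes that changed less between those times, 10.8% were lower and 9.64% higher. Late T3-induced genes made up 94 of the 158 (59.5%) and 21 of the 437 2-fold rises (4.81%), and 617 of all 14218 genes tested. Without donor 2 the share of late T3-induced genes that were lower was 17.7%. In that setting 542 of all 14218 genes were lower, in place of 1699. The reverse set was 598 late T3-repressed genes among the 14218 tested. It held 150 (25.1%) higher and 51 (8.53%) lower, with a median of 0.11 (donors 0.28, 0.04 and 0.07). It also held 62 of the 437 rises (14.2%).

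For the 94 genes, the median signal in T3 was 6.87 at 24 h, 8.70 at 48 h and 10.17 at 96 h. In T3+IFNγ it was 7.27 at 48 h and 9.57 at 96 h. The choice of these genes by their fall at 48 h and their rise in T3 in part fixes this order. Their median change with IFNγ was −0.13, −0.33, −1.26 and −0.51 at 8, 24, 48 and 96 h, and 71 were called without each donor in turn. By donor, the median T3 signal at 48 h was 9.17, 8.76 and 8.24 for donors 1, 2 and 3, and the T3+IFNγ signal 7.50, 6.96 and 7.43, so that donor 3 was lowest in T3 and had the smallest difference.

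**Figure D4:**
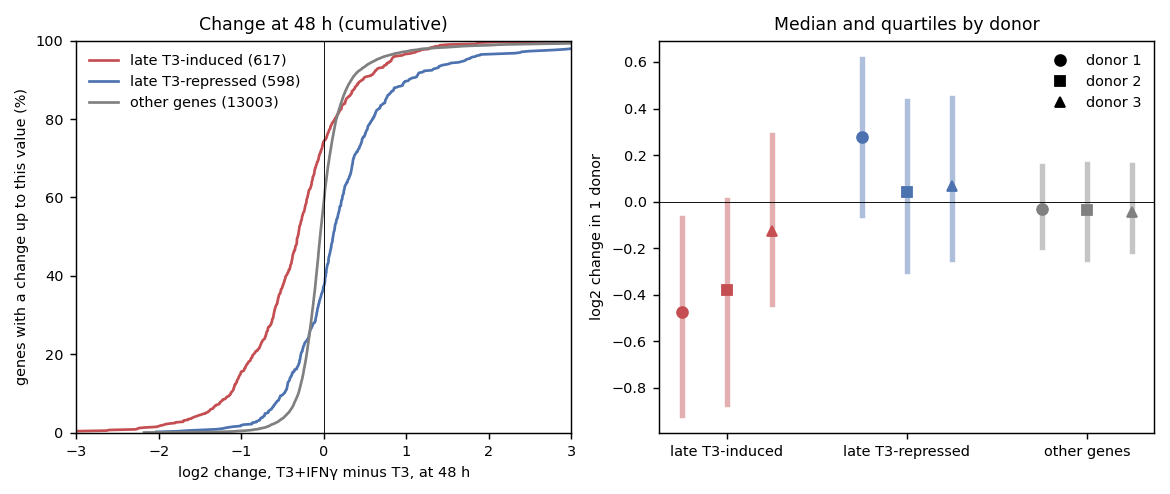
Left, cumulative share of genes (%) against their change at 48 h (log2, T3+IFNγ minus T3) for 617 late T3-induced, 598 late T3-repressed and 13003 other genes. Right, median (symbol) and quartiles (bar) of the change in each donor, where the medians of the late T3-induced genes are −0.47, −0.38 and −0.13 and those of the late T3-repressed genes 0.28, 0.04 and 0.07.

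The change at 48 h was set against that at 24 h and at 96 h, which share no array with it. It was above the change at 24 h in 60 genes (0.422% of those tested) and below it in 99 (0.696%), and above the change at 96 h in 294 (2.07%) and below it in 421 (2.96%). Of the 437 2-fold rises, 282 were called higher at 8 h, 378 at 24 h and 389 at 96 h, with median changes of 1.07, 1.44, 1.69 and 1.49 at 8, 24, 48 and 96 h. Gbp7 rose by 8.17, 8.36 and 7.96 at 24, 48 and 96 h. Of the 158 2-fold falls, 66 were called lower at 24 h and 67 at 96 h, with medians of −0.49, −1.23 and −0.48. The fall at 48 h was the stronger one in 39 against 24 h, in 78 against 96 h and in 30 against both. Both sets were chosen by their change at 48 h, which in part fixes these medians and counts. These counts rest on the donors unevenly. Without donor 2 the difference from 24 h was called in 3 genes above and 1 below, and the difference from 96 h in 66 and 29. At 24 h the 3' minus 5' difference of Actb was 1.47 in the T3+IFNγ array of donor 2, against 1.04 in its T3 array. In the T3+IFNγ arrays of donors 1 and 3 at 24 h it was 0.96 and 0.94. Its part in these counts was not tested.

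Of all genes, 48 were below both neighbouring times and 16 above both. The 48 had a median change of −0.06, −0.04, −1.14 and −0.04 at 8, 24, 48 and 96 h. These values restate how the genes were chosen. Among the 48, Uba7 (1.74) and Aida (0.63) were called higher at 48 h and rose less than at the other times. Prickle1 changed by −0.74, −3.52 and −0.58 at 24, 48 and 96 h (difference from 24 h −2.78, limma adjusted p = 0.00156, and from 96 h −2.94, limma adjusted p = 8.12e-05). Dct changed by 0.26, −3.07 and 0.14 (−3.33, limma adjusted p = 0.00218, and −3.21, limma adjusted p = 0.000634). Its T3 mean went from 6.28 at 24 h to 12.10 at 96 h, and the T3+IFNγ mean reached the same level by then. Ptgds changed by −0.18, −2.64 and 0.04, and Aspa by 0.16, −1.60 and −0.15. Without donor 2 the difference from 24 h was not called for Prickle1 (0.244), Dct (0.25) or Ptgds (0.38).

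**Figure D5:**
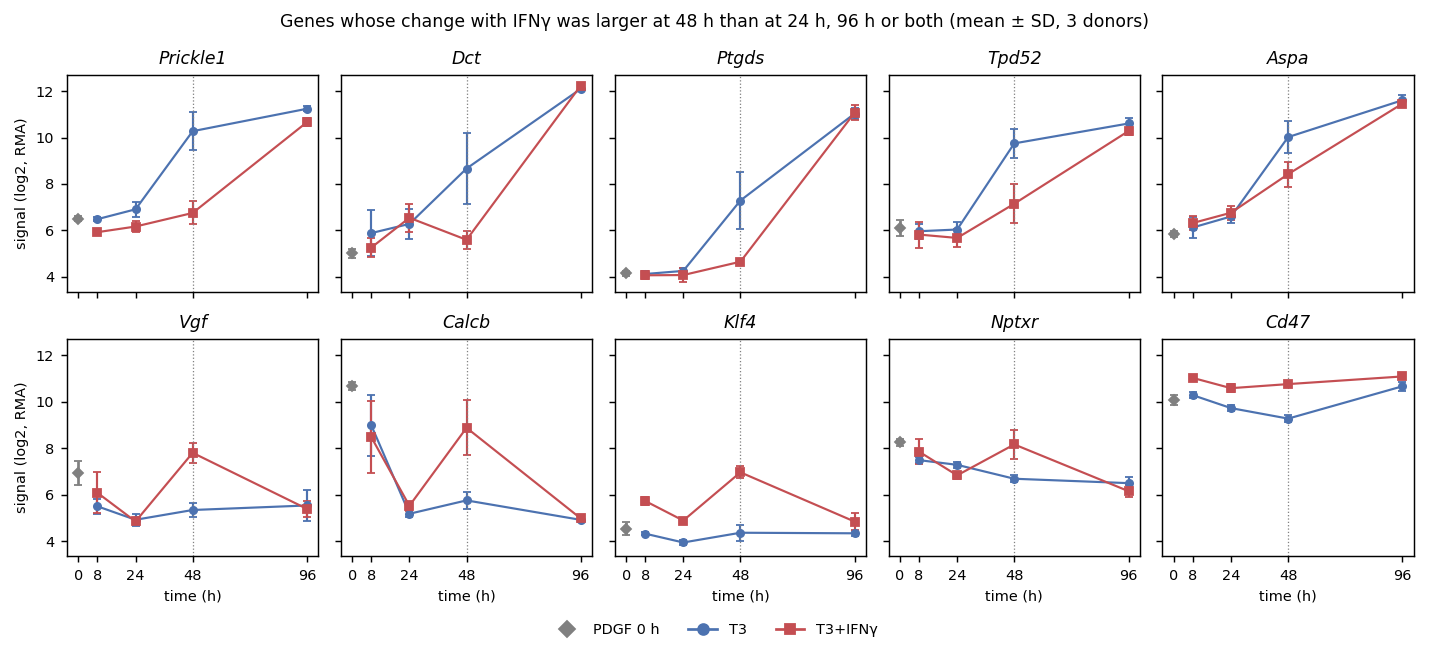
Mean signal (log2, RMA) ± SD of 3 donors against time (h) in PDGF (grey), T3 (blue) and T3+IFNγ (red) for 10 genes whose change with IFNγ at 48 h (dotted line) was larger than at 24 h, 96 h or both. In the upper panels T3 runs ahead of T3+IFNγ at 48 h and the lines lie close together at 96 h, and in the lower panels T3+IFNγ stands above T3 at 48 h.

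Of the 16 genes above both neighbours, 12 had a higher T3+IFNγ mean at 48 h than at 24 or 96 h. Klf4, a zinc finger factor of stem cells that interferons induce in myeloid cells, was 4.73, 4.05 and 4.30 in T3 and 7.17, 6.68 and 7.04 in T3+IFNγ, a change of 2.60 ± 0.17 (limma adjusted p = 2.09e-10). At 24 and 96 h it changed by 0.94 and 0.50 (difference 1.66, limma adjusted p = 0.00188, and 2.10, limma adjusted p = 1.82e-05). Vgf, a neuropeptide precursor, was 5.66, 5.05 and 5.31 against 8.10, 7.32 and 7.99 (2.46, limma adjusted p = 1.85e-05), with −0.07 at 24 h and −0.15 at 96 h. Nptxr, a receptor of neuronal pentraxins, was 6.77, 6.77 and 6.52 against 8.86, 7.61 and 8.02, with −0.45 and −0.34. The groups did not overlap in any of these genes. Other genes of secreted peptides were higher at 48 h, with a difference that was called against 96 h and not against 24 h. Scg2, a secretory granule protein, was 6.02, 4.43 and 4.14 against 8.82, 6.90 and 8.34 (limma adjusted p = 0.000723, and 0.0624 without donor 3). Calcb, a calcitonin gene-related peptide, was 6.07, 5.85 and 5.34 against 10.05, 7.67 and 8.92, and Gal, the galanin precursor, 5.16, 5.09 and 5.12 against 8.05, 5.86 and 7.02. In Calcb and Gal donor 1 was highest and donor 2 lowest with IFNγ. Calcb and Vgf had PDGF means of 10.67 and 6.94 at 0 h.

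Cd47, the surface signal that holds back phagocytes, was 9.16, 9.21 and 9.46 in T3 and 10.84, 10.60 and 10.85 in T3+IFNγ (1.49, limma adjusted p = 1.58e-10), and its changes at 24 and 96 h, 0.86 and 0.42, were smaller (differences 0.63, limma adjusted p = 0.0264, and 1.06, limma adjusted p = 6.53e-05). Among the interferon response genes, Psmb10 rose more at 48 h than at 24 h (4.34 against 2.93, limma adjusted p = 0.0123) and so did Jak2 (1.72 against 1.13, limma adjusted p = 0.0423). Cxcl10 and Cxcl9 rose more at 48 h than at 96 h (6.83 against 5.30, limma adjusted p = 0.0156, and 5.07 against 3.33, limma adjusted p = 0.0386). Tmem140 rose less at 48 h, from 5.53, 5.58 and 5.85 to 7.74, 6.91 and 7.75, than at 96 h (1.81 against 4.73, limma adjusted p = 2.17e-07). Lrfn2, a synaptic adhesion protein, was the only gene whose difference from 24 h was called without each donor in turn (a change of 0.53 at 48 h and 1.97 at 24 h, limma adjusted p = 2.58e-06), and was chosen after its values were seen. Of the 715 differences from 96 h, 80 were called without each donor in turn.

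Several late genes of the lineage fell at 96 h, while at 48 h Mal fell by less and Opalin and Apod were not called. At 48 h the T3 means of Mal and Opalin were 4.81 and 4.15, where a fall has little room to show. Mal, a proteolipid of myelin, was 4.46, 4.90 and 5.07 in T3 at 48 h and 3.99, 4.13 and 4.20 in T3+IFNγ, before its T3 mean reached 10.24 at 96 h, where the change was −4.94 (difference 4.23, limma adjusted p = 1.68e-08). Opalin changed by −0.14 at 48 h and by −3.68 at 96 h, where its T3 mean was 9.60 (difference 3.55, limma adjusted p = 5.3e-06). Apod, an apolipoprotein of the lineage, was 9.86, 10.61 and 10.95 against 10.43, 10.93 and 10.73 at 48 h, which overlap, and changed by −2.77 at 96 h. Nxpe2 turned, from 6.66, 6.20 and 5.13 against 4.42, 3.95 and 4.43 at 48 h (−1.73) to a rise of 3.63 at 96 h (difference −5.35, limma adjusted p = 1.68e-08). Mag, in contrast, had changes of −1.48, −1.56 and −0.89 at 24, 48 and 96 h, and neither difference between times was called.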

How the data were processed

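The authors deposited a table of log2 signals of 27 Affymetrix rat genome arrays of cultured OPCs, which they computed with RMA (background correction, quantile normalization and a summary per probe set), and their notes name limma for comparisons, without versions. The deposited log2 values run from 2.28 to 14.5 and were used as they are. Of 31099 probe sets, 57 were controls, 436 named several genes and 9831 none in the platform annotation of 2016, and 20764 of the 20832 with 1 symbol matched the reference annotation (GRCr8) by Entrez identifier. This gave 14218 genes. Where a gene had several probe sets (4526 genes), the brightest by its mean of the 27 arrays was used. Called probe sets disagreed in direction for 10 genes. No 2 arrays were identical (highest r 0.9967), and the number of arrays limits the precision.

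R 4.3.3 with limma 3.58.1 fitted 9 group means and a donor block over all 27 arrays (lmFit, eBayes, two-sided, Benjamini-Hochberg over all genes in each comparison), giving 16 residual and 4.64 prior degrees of freedom. Tables and plots were made in Python 3.11.15 (pandas 2.3.3, NumPy 2.4.6, matplotlib 3.10.9). The threshold was an adjusted p of 0.05. The replicate numbers pair the arrays, since the labels name them as donors. Deviations from the group means had a median r of 0.310 within a donor and of −0.171 between donors.

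The comparison, the 32 gene lists and the 6 marker lists were chosen with earlier results of these data known. The text names the 15 largest rises and falls that moved alike in all donors, the called members of a list with the largest change (at most 5) and those against it, the 6 largest differences between times in each direction, up to 5 defining members of a list, and a few genes chosen after their values were seen, for their course over time or their role. Alternatives were median centring, a filter on low values, the mean of a gene's probe sets, no donor block, only the 6 arrays at 48 h, another moderation and leaving out each replicate. The steps were tested on simulated data. Promoters are RefSeq sequences.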

Additional observations from a re-analysis of the deposited data

Results flagged for a closer look

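The change with IFNγ at 48 h differed from that at 24 h, by a test of the difference itself in the limma fit over all arrays, upward in 60 genes and downward in 99. The same test against 96 h gave 294 upward and 421 downward. The largest differences of each sign, all past an adjusted p of 0.05 by limma, are given here as the change at 48 h minus that at the other time, on the log2 scale.

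Against 24 h, the upward differences were Saa3 at 2.79, Vgf at 2.53, Nptxr at 1.93, Zcchc18 at 1.88, Pcolce at 1.81 and Rab9b at 1.71. Saa3, an acute phase protein, went from 4.82, 4.71 and 4.83 in T3 to 8.45, 8.19 and 10.34 in T3+IFNγ at 48 h, and its change was 1.42 at 24 h and 4.62 at 96 h. Pcolce, an enhancer of procollagen processing, changed by 0.30, 2.11 and 4.71 at 24, 48 and 96 h. The downward differences were Dct at −3.33, Prickle1 at −2.78, Gadd45b at −2.48, Ptgds at −2.46, Slc12a7 at −2.31 and Tpd52 at −2.24. Gadd45b and the potassium chloride cotransporter Slc12a7 had changed by 2.00 and 2.33 at 24 h and by −0.48 and 0.02 at 48 h, where neither was called.

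Against 96 h, the upward differences were Mal at 4.23, Opalin at 3.55, Scg2 at 3.08, Calcb at 3.07, Anxa2 at 3.02 and Apod at 2.996. Anxa2 changed by 0.60 at 48 h, not called, and by −2.42 at 96 h. The downward differences were Nxpe2 at −5.35, Dct at −3.21, Casr at −3.09, Prickle1 at −2.94, Tmem140 at −2.91 and Aoc1 at −2.85. Casr, the calcium-sensing receptor, changed by −1.47 at 48 h and by 1.61 at 96 h, and Aoc1, a diamine oxidase, by −0.97 and 1.89.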

How the results depend on the processing

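Of the counts at 48 h, those of genes at least 2-fold higher stayed within 1.5 times of 437 under all alternatives, and of the 255 named genes no called one turned direction under any of them. Of the 233 named genes called, 71 lost the call without donor 2, 65 without donor 3, 13 without donor 1 and 29 without the block.

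Left-out donors mattered most. Leaving out each replicate gave 785 to 1484 genes higher (785 without replicate 3), 542 to 1860 lower (542 without replicate 2 and 756 without replicate 3), 375 to 471 at least 2-fold higher and 99 to 208 at least 2-fold lower (99 without replicate 2). The change at 48 h was above that at 24 h in 3 to 103 genes (103, 3 and 8 without replicates 1, 2 and 3) and below it in 1 to 108 (1 and 42 without replicates 2 and 3). It was above that at 96 h in 66 to 382 (66 and 88) and below it in 29 to 405 (29 and 142). The share of late T3-induced genes lower ran from 17.67% (without replicate 2) to 41.31%, and that of late T3-repressed genes higher from 16.46% (without replicate 2) to 26.61%. Fewer arrays are part of each of these settings, and why replicates differ was not tested.

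Without the donor block, where donors pair the arrays, 1077 genes were higher and 1213 lower. The change at 48 h was above that at 24 h in 22 and below it in 50, and above that at 96 h in 170 and below it in 229. The paired fit thus calls more differences between times, and 16.16% of the late T3-repressed genes were higher without it. Median centring lowered 2903 genes in place of 1699. The low-value filter, the mean of probe sets, the 6 arrays alone and the other moderation kept the counts over all genes that they give within 1.5 times. Among the counts of list members, 8 dropped by more than 1.5 times with the low-value filter and 7 with the 6 arrays alone. More of them dropped without replicate 2 (30), without replicate 3 (27) and without the donor block (16), and 4 did without replicate 1. Probe sets near background limit what a small change in a dim gene can show.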
